A study of Mus musculus with 12 samples.

Results

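The response of the proximal ileal epithelium to the lowest dose of TCDD in the series, 3 µg/kg, was examined against sesame oil vehicle. The comparison took the 3 libraries labelled with a dose of 3 and the 3 labelled with a dose of 0, which are 6 of the 12 libraries of the series. The other 6 received 10 or 30 µg/kg. TCDD is a persistent chlorinated dioxin and a ligand of the aryl hydrocarbon receptor (AhR). All animals were male C57BL/6 mice on the same diet with no allele named in the labels, gavaged 7 times at intervals of 4 days from an age of 28 days and examined at 56 days of age. The study's methods give a harvest within the opening hours of the light phase for all animals. RNA came from scrapings of the intestinal epithelium, so other cells of the wall can be included, and a lower level of a gene can mean fewer cells that express it or less RNA per cell; these cannot be told apart in bulk samples. The labels give no replicate numbers and do not say that the libraries came from separate animals, so the replicate numbers used here only name the libraries and p-values measure the spread between them.

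Ligand-bound AhR enters the nucleus, pairs with ARNT and binds DNA at sites that contain the core GCGTG, and genes of xenobiotic metabolism such as Cyp1a1 are its best known targets. The intestinal epithelium also keeps a circadian clock, in which CLOCK and ARNTL (BMAL1) drive the Per, Cry and Nr1d genes and the transcription factor Dbp, and these products then repress the drivers. Dbp and Arntl therefore peak at opposite times of the day, and their ratio marks the clock phase of a tissue sample.

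Gene counts totalled 14509281 to 16033628 per library at 3 µg/kg and 17890737 to 22180274 in vehicle, so the treated libraries were the shallower ones and the ranges did not overlap. Reads matching no gene made up 29.4% to 30.1% of the total at 3 µg/kg and 29.4% in each vehicle library. Levels are given as CPM, counts scaled to a common library size after TMM (trimmed mean of M values) scaling. On this scale 3 counts, the floor used for a gene not detected, equal 0.175 to 0.226 CPM at 3 µg/kg. Within groups, each pair of libraries differed by 10.6 to 48.0 times the variance that counting alone would give, so no library was a copy of another. Enterocyte genes were abundant in each library, with 47985 to 72361 summed CPM over a list of 12. The ileal markers Fabp6 and Fgf15 were nearly absent from the vehicle libraries of this ileal tissue, and the colonic marker Car1 had no count in the 6 libraries.

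At 3 µg/kg few genes passed the test. Of 15823 genes tested, 36 (0.228%) were called, which required an adjusted p under 0.05 in edgeR's quasi-likelihood test with Benjamini-Hochberg adjustment and a change of at least 1.5-fold. Of these, 9 (0.0569%) were higher and 27 (0.171%) lower than in vehicle. The higher group was led by Fabp6, Fgf15 and Slc6a14, genes of bile acid handling and amino acid transport. The lower group consisted of 13 small RNA genes, 8 protein-coding genes and 6 others, with pancreatic digestive enzymes and Cyp1a2 at its far end. An unadjusted p under 0.05 was found for 1800 genes (11.4%), 1026 of them higher. The median log2 change of all genes tested was 0.00. The fit took its spread from all 12 libraries; with the 6 libraries of vehicle and 3 µg/kg alone 6 genes were called, namely Fabp6, Gm25776, Gm42826, Mir6236, Rmrp and Rn7sk.

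**Figure D1:**
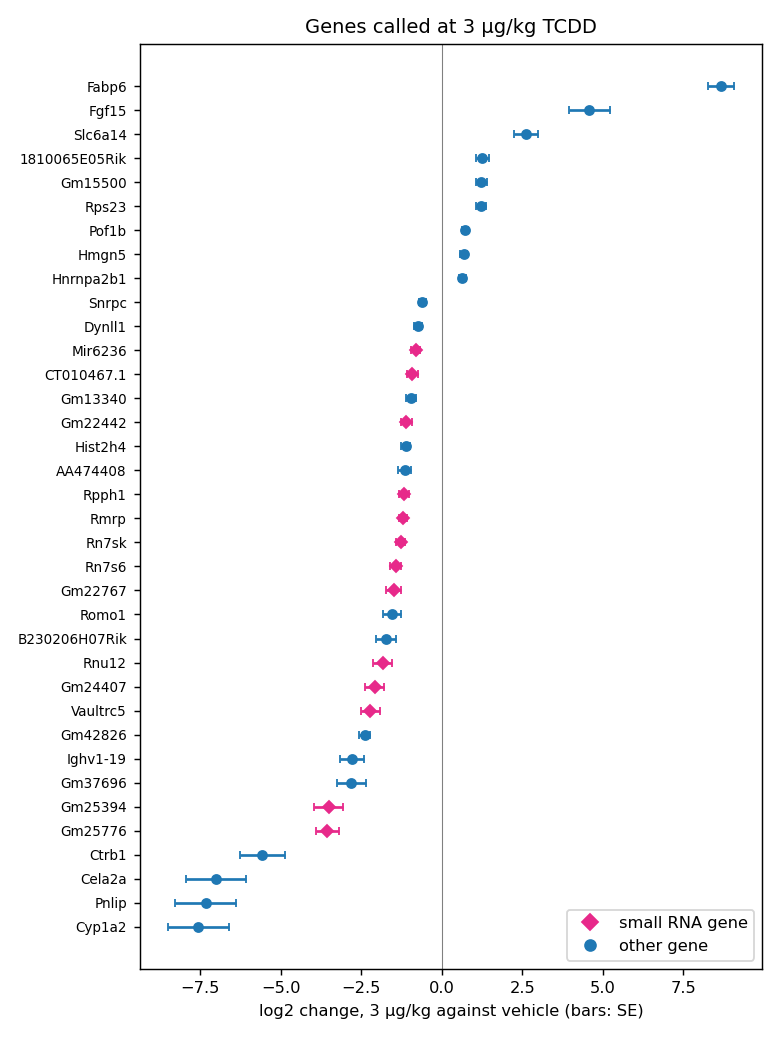
Log2 change between 3 µg/kg TCDD and vehicle (horizontal axis) with its standard error for each of the 36 called genes; diamonds are small RNA genes and circles all other genes. All 13 small RNA genes lie left of 0, and Fabp6 lies farthest to the right at 8.68. The values farthest to the left belong to genes with 0 to 2 counts at 3 µg/kg. Those of the genes with 0 counts are set by the prior count of the fit.

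The clock state of the libraries was set beside the comparison because it differed within both groups. Dbp, a PAR bZIP transcription factor and a direct clock output, had 1.07, 121 and 86.4 CPM in vehicle replicates 1 to 3 and 90.9, 3.39 and 1.64 CPM in replicates 1 to 3 of 3 µg/kg. Arntl, the partner of CLOCK, had 62.2, 5.93 and 7.36 CPM in vehicle and 5.51, 42.3 and 42.9 CPM at 3 µg/kg. Vehicle replicates 2 and 3 and treated replicate 1 were thus high in Dbp and low in Arntl, and the other 3 libraries were the reverse. The log2 ratio of Dbp to Arntl was between 3.55 and 4.35 in the former and between -5.86 and -3.64 in the latter. Group means of the ratio were therefore close to neither state, and 2 vehicle libraries shared a state with only 1 treated library.

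**Figure D2:**
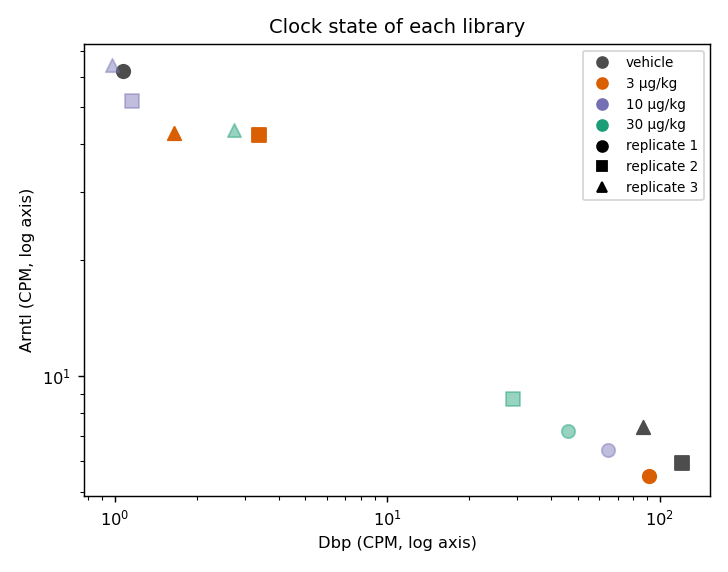
Dbp (horizontal) against Arntl (vertical) in CPM on log axes for the 12 libraries, coloured by dose, with marker shape giving the replicate number. The libraries fall in 2 corners, and vehicle and 3 µg/kg are found in both: vehicle replicates 2 and 3 with 3 µg/kg replicate 1 at the lower right, vehicle replicate 1 with 3 µg/kg replicates 2 and 3 at the upper left.

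Most other clock genes followed the same division of libraries. Per3, a repressor of the loop, had 4.96, 91.0 and 110 CPM in vehicle and 97.0, 6.72 and 5.58 CPM at 3 µg/kg. Tef, a relative of Dbp, had 13.0, 158 and 155 CPM in vehicle and 161, 21.4 and 18.7 CPM at 3 µg/kg. Ciart, a repressor of CLOCK and ARNTL, ran from 0.282 to 8.42 CPM in vehicle and from 0.294 to 5.96 CPM at 3 µg/kg. Npas2, which can stand in for CLOCK, went with Arntl at 120, 38.2 and 40.8 CPM in vehicle and 45.4, 99.0 and 81.6 CPM at 3 µg/kg. Hlf, the other PAR bZIP gene, and the repressors Per2 and Nr1d2 were also high with Dbp. Hlf had 2.48, 28.3 and 37.2 CPM in vehicle and 38.3, 2.102 and 1.115 CPM at 3 µg/kg, Per2 had 17.1, 97.9 and 108 and then 123, 14.0 and 12.6 CPM, and Nr1d2 had 19.1, 133 and 133 and then 139, 33.9 and 34.1 CPM. Nr1d1 ran from 60.2 to 187 CPM in vehicle and from 68.5 to 115 CPM at 3 µg/kg, Cry2 from 18.4 to 45.9 and from 18.6 to 53.8 CPM, Bhlhe40 from 51.4 to 93.0 and from 36.9 to 67.0 CPM, and Bhlhe41 from 0.395 to 1.94 and from 0.528 to 0.876 CPM. Nfil3, a repressor that competes with the PAR bZIP factors, went with Arntl at 25.4, 2.55 and 2.63 CPM in vehicle and 2.94, 17.3 and 16.0 CPM at 3 µg/kg. Cry1 varied little, from 19.1 to 23.7 CPM in vehicle and from 20.5 to 23.0 CPM at 3 µg/kg. Of the nuclear receptors that activate Arntl, Rora had 2.93 to 4.83 CPM in vehicle and 2.87 to 4.99 CPM at 3 µg/kg, and Rorb had 3.33 to 3.89 and 4.76 to 6.79 CPM. The 6 clock-linked genes Wee1, Usp2, Tsc22d3, Fkbp5, Noct and Nampt overlapped between groups, and Fkbp5, a stress hormone co-chaperone, spanned 28.2 to 119 CPM in vehicle and 37.0 to 151 CPM at 3 µg/kg. Across the 12 libraries, after removal of the group means, the median correlation with the Dbp to Arntl ratio was 0.99 for the 3 PAR bZIP genes, 0.91 for the 11 repressors, 0.93 for 6 further clock-linked genes and -0.40 for the 6 activators; the ratio contains 2 of these genes, and the values are descriptive. None of the 26 clock genes was called, and 2, Clock and Rorb, had an unadjusted p under 0.05, against 11.4% of all genes. Clock had 128, 114 and 120 CPM in vehicle and 132, 146 and 155 CPM at 3 µg/kg. The median log2 change was -0.75 for the PAR bZIP genes and -0.59 for the repressors, with group ranges that overlapped for each of these 14 genes. Without treated replicate 1 these medians were -3.81 and -0.91, and without vehicle replicate 1 they were -1.28 and -0.92. Of the 22 clock genes with a promoter in the RefSeq table used here (assembly GRCm38.p6, 250 bases before to 50 after the start), 6 held the E-box CACGTG, the sequence bound by CLOCK and ARNTL, against 8.09% of all genes and 7.15% of all promoters in the table. A match of letters describes the window and is not a measured site. The windows of Per1 and of Ciart, which carries 3 matches, are shown with the E-box in capitals because these genes swung with the clock state of the libraries.
Per1, chr11:69098699-69098998, plus strand: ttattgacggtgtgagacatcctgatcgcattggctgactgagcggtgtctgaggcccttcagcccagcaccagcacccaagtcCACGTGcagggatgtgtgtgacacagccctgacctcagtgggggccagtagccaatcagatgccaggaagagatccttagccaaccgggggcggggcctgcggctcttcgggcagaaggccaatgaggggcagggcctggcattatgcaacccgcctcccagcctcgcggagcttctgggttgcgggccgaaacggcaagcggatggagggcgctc
Ciart, chr3:95882179-95882478, minus strand: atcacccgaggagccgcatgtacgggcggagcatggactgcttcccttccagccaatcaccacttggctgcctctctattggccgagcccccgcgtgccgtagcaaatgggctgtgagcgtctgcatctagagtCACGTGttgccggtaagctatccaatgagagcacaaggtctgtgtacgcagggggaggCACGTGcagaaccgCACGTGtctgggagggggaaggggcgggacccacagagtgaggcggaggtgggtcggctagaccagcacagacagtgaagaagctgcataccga

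Known AhR targets gave a weak and uneven response. Cyp1a1, a monooxygenase of aromatic hydrocarbons, had 22.7, 27.5 and 19.0 CPM in vehicle and 141, 68.8 and 22.2 CPM at 3 µg/kg. Treated replicates 1 and 2 were above the vehicle libraries, and replicate 3 lay among them. The mean was 23.0 CPM ± 4.28 (SD, n = 3) in vehicle. It was 77.4 CPM ± 60.05 at 3 µg/kg, and this gave a change of 1.74 in log2 (SE 0.46) that was not called (edgeR adjusted p 0.208). Without treated replicate 3 the log2 change was 2.17 and was called (edgeR adjusted p 0.0100), and without treated replicate 1 it was 0.98 (edgeR adjusted p 0.173). Cyp1b1, a related monooxygenase, had 1.35, 2.64 and 2.63 CPM in vehicle and 3.17, 5.20 and 3.70 CPM at 3 µg/kg. These groups did not overlap, and the change of 0.86 in log2 (SE 0.23) was not called (edgeR adjusted p 0.221).

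The feedback genes and Nqo1 gave smaller values. Ahrr, the AhR repressor, had 2.48 to 4.26 CPM in vehicle and 3.62 to 4.79 CPM at 3 µg/kg, with a change of 0.21 in log2 (SE 0.23). Tiparp, a mono-ADP-ribosyltransferase that represses AhR, had 36.7 to 41.5 CPM in vehicle and 59.8, 40.4 and 41.1 CPM at 3 µg/kg, so treated replicate 1 alone stood above the vehicle range. Its log2 change was 0.28 (SE 0.14, edgeR adjusted p 0.476). Nqo1, a quinone reductase, had 14.7 to 20.1 CPM in vehicle and 18.1 to 19.2 CPM at 3 µg/kg, a change of 0.05 in log2 (SE 0.17). Of the 6 targets, 2 had an unadjusted p under 0.05 in the higher direction (6.48% of all genes) and 1 in the lower (4.89%), and the list's median log2 change was 0.24.

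Cyp1a2 went the other way and was the 1 target called. This monooxygenase, known mainly from liver, had 1.13, 2.31 and 0.788 CPM in vehicle and no count in any library of 3 µg/kg. Vehicle was at least 7.32-fold higher when 3 µg/kg was set at the floor of 3 counts per library (edgeR adjusted p 0.00824). The call held in each of the 6 fits that left out 1 library, with an adjusted p of 0.00932 to 0.0366, and was lost when the 6 libraries were fitted alone (edgeR adjusted p 0.225). The 85 counts of the vehicle libraries are the whole measurement on which this rests.

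The promoters of Cyp1a1, Cyp1b1 and Ahrr are shown because they hold the DNA motif of the receptor in 3 of its targets, including both with a higher level at an unadjusted p under 0.05. The core GCGTG is in capitals, also where it is read as CACGC from the opposite strand. On either strand it occurs in the windows of 4 of the 6 targets (these 3 and Tiparp) and in 35.2% of all genes, and neither Cyp1a2 nor Nqo1 has it in this window. Of the clock genes, 18 of 22 hold it as well, and 3 of the 7 called-higher genes found in the table hold it.
Cyp1a1, chr9:57697363-57697662, plus strand: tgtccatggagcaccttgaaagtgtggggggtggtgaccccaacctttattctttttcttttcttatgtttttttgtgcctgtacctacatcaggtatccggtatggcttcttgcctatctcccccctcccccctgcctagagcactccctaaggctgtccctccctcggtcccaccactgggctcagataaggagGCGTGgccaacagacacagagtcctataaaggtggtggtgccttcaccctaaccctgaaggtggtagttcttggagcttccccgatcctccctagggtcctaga
Cyp1b1, chr17:79715012-79715311, minus strand: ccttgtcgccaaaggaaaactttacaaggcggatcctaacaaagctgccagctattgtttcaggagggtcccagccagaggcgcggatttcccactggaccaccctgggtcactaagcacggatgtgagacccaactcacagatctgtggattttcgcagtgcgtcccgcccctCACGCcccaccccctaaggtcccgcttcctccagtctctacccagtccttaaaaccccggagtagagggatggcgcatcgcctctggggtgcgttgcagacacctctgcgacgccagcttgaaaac
Ahrr, chr13:74292282-74292581, minus strand: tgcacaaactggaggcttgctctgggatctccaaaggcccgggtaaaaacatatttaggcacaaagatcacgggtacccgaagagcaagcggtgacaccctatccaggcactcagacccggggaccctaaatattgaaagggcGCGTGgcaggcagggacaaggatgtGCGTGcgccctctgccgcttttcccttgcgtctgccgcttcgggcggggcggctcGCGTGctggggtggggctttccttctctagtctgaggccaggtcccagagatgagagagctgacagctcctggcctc

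The genes of the receptor complex were measured beside their targets, and none was called. Ahr had 20.7 to 28.1 CPM in vehicle and 23.1 to 26.9 CPM at 3 µg/kg, with a change of 0.11 in log2 (SE 0.17). Arnt, its partner, had 54.2 to 57.6 CPM in vehicle and 59.2 to 69.1 CPM at 3 µg/kg, a change of 0.17 in log2 (SE 0.08, edgeR adjusted p 0.475) with no overlap. Hsp90aa1, a chaperone that holds the receptor in the cytosol, had 44.1, 38.1 and 43.0 CPM in vehicle and 46.9, 69.5 and 70.9 CPM at 3 µg/kg. Its log2 change of 0.58 (SE 0.15) was not called (edgeR adjusted p 0.208); without treated replicate 1 it was 0.75 and was called (edgeR adjusted p 0.0155). The co-chaperone Ptges3 had 46.2 to 52.4 CPM in vehicle and 51.2 to 71.0 CPM at 3 µg/kg, a change of 0.29 in log2 (SE 0.12, edgeR adjusted p 0.381). Of the 7 genes of the complex, Hsp90aa1 and Ptges3 had an unadjusted p under 0.05 in the higher direction (6.48% of all genes), and 0 were called. Hsp90ab1, the constitutive relative of Hsp90aa1, had 293 to 321 CPM in vehicle and 284, 433 and 391 CPM at 3 µg/kg, a change of 0.28 in log2 (SE 0.13, edgeR adjusted p 0.452). Arnt2, a relative of Arnt, had 6.20 to 8.63 CPM in vehicle and 5.81, 5.49 and 2.23 CPM at 3 µg/kg, with no overlap and a change of -0.66 in log2 (SE 0.42, edgeR adjusted p 0.581).

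Some enzymes of the Ugt1a locus, which conjugate glucuronic acid to xenobiotics and are AhR-responsive in part, differed most from vehicle in treated replicate 1 or in replicates 2 and 3. Ugt1a7c had 77.3, 78.9 and 90.8 CPM in vehicle and 134, 112 and 95.5 CPM at 3 µg/kg, a change of 0.47 in log2 (SE 0.12, edgeR adjusted p 0.208). Ugt1a6b had 1.84 to 2.48 CPM in vehicle and 5.81, 3.27 and 3.35 CPM at 3 µg/kg, a change of 0.98 in log2 (SE 0.27, edgeR adjusted p 0.239). Ugt1a1, the enzyme of bilirubin, had 129 to 142 CPM in vehicle and 121, 87.2 and 78.1 CPM at 3 µg/kg, a change of -0.50 in log2 (SE 0.16, edgeR adjusted p 0.272). None of the 3 was called, although their groups did not overlap. Groups did not overlap for 15.4% of all genes, with 3 µg/kg above in 8.58% and below in 6.84%. The genes of this locus share exons at their 3′ ends, so reads can be split between them and these levels are uncertain.

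The largest rises by log2 change among the called genes were those of Fabp6 and Fgf15. Fabp6, the cytosolic bile acid carrier of ileal enterocytes, had 0.0564, 0.0926 and 0.0525 CPM in vehicle, or 4 counts in all, and 38.3, 32.5 and 22.9 CPM at 3 µg/kg, or 1454 counts. The rate was 448-fold higher (95% exact interval 174 to 1645, counting error only), with a change of 8.68 in log2 (SE 0.40, edgeR adjusted p 3.91e-07). Fabp6 was called in each of the 15 fits that tested it. Fgf15, the hormone by which the ileum represses bile acid synthesis in liver, had 1, 3 and 0 counts in vehicle and 28, 32 and 24 counts at 3 µg/kg, or 1.41 to 2.11 CPM. It rose by a factor of 25.9 in rate (interval 9.73 to 97.1; edgeR adjusted p 0.0323). The call of Fgf15 held without treated replicate 1 and was lost in the other 5 fits that left out 1 library, with an adjusted p of up to 0.149, and Fgf15 has antisense neighbours (Gm26793 and Gm39119).

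Slc10a2, the apical transporter that takes bile acids up, pointed the same way without a call. It had 0.451, 2.22 and 2.68 CPM in vehicle and 16.5, 9.11 and 5.46 CPM at 3 µg/kg, with each treated library above each vehicle library. Its log2 change was 2.51 (SE 0.50, edgeR adjusted p 0.0813), and with the Dbp to Arntl ratio as a covariate it was 2.88 (SE 0.31, edgeR adjusted p 0.000699) in a range of 0.000347 to 0.428 over the settings. The basolateral exporters Slc51a and Slc51b and the bile acid receptor Nr1h4 overlapped between groups, with log2 changes of -0.14, 0.23 and 0.22 (SE 0.13, 0.36 and 0.20). Of the 7 ileal enterocyte genes tested, 2 were called higher (0.0569% of all genes) and 3 had an unadjusted p under 0.05, and the median log2 change was 0.23. The whole list did not move with Fabp6. It summed to 1374, 1684 and 1408 CPM in vehicle and 2025, 735 and 682 CPM at 3 µg/kg, most of it from Cubn, the ileal receptor of cobalamin (vitamin B12) uptake, which had 1110, 1452 and 1185 CPM in vehicle and 1722, 464 and 399 CPM at 3 µg/kg.

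Levels of Fabp6, Fgf15 and Slc10a2 separated the libraries of 3 µg/kg from those of the higher doses as well as from vehicle. Fabp6 had 0.144 to 0.306 CPM at 10 µg/kg and at most 0.178 CPM at 30 µg/kg, and Fgf15 had no count in these 6 libraries. Slc10a2 had 0.980 to 2.16 CPM at 10 µg/kg and 0.868 to 0.986 CPM at 30 µg/kg. The 3 libraries of 3 µg/kg were thus the only ones of the 12 with more than 0.306 CPM of Fabp6.

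**Figure D3:**
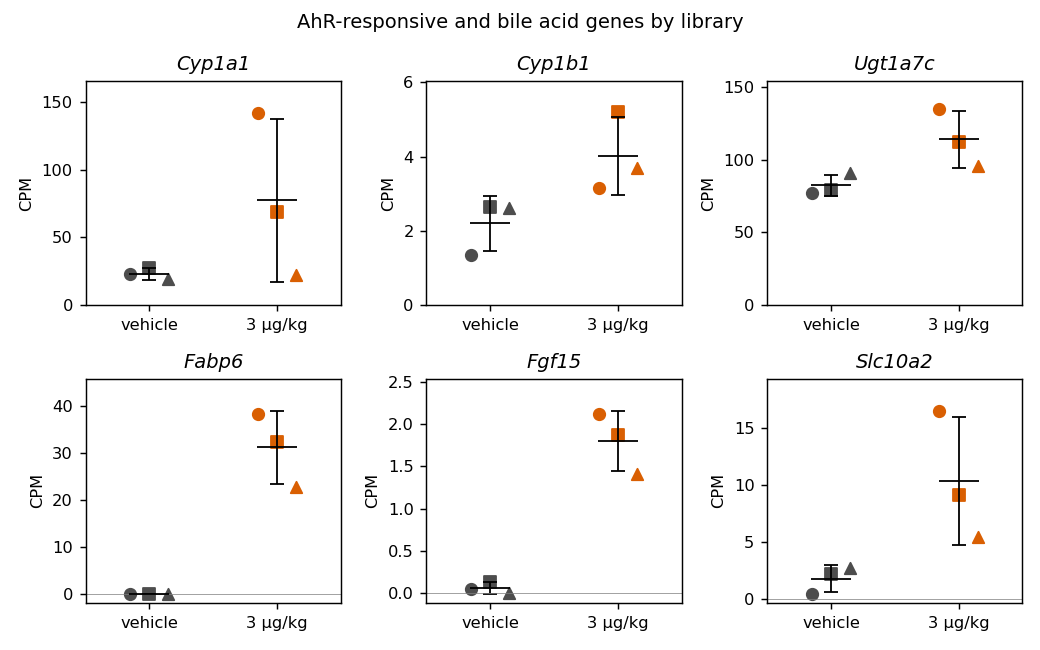
CPM of 6 genes (vertical axes, each with its own scale) in the vehicle and 3 µg/kg libraries; markers are libraries (circle, square and triangle for replicates 1, 2 and 3), the horizontal dash is the mean and the bar the SD (n = 3). Fabp6, Fgf15 and Slc10a2 do not overlap between groups, whereas replicate 3 of 3 µg/kg has Cyp1a1 within the vehicle range (22.2 CPM).

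Beyond bile acids, 7 further genes rose. Slc6a14, a transporter of neutral and basic amino acids, had 0.169, 0.185 and 0.315 CPM in vehicle and 1.36, 1.17 and 1.70 CPM at 3 µg/kg, a change of 2.62 in log2 (SE 0.38, edgeR adjusted p 0.0106). 1810065E05Rik had 1.21 to 1.81 CPM in vehicle and 2.98 to 4.17 CPM at 3 µg/kg, a change of 1.26 in log2 (SE 0.21, edgeR adjusted p 0.0268). Both rested on few counts, and leaving out 1 library raised their adjusted p to as much as 0.0781 and 0.138. Pof1b, an actin-binding protein of epithelial junctions, rose from 56.5 to 60.4 CPM in vehicle to 92.1 to 105 CPM at 3 µg/kg, a change of 0.73 in log2 (SE 0.09, edgeR adjusted p 0.00569), and was called in each of the 6 fits that left out 1 library.

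The remaining risers were a pseudogene and genes of translation, chromatin and splicing. Rps23, a protein of the small ribosomal subunit, had 13.2 to 16.2 CPM in vehicle and 27.9 to 41.9 CPM at 3 µg/kg, a change of 1.22 in log2 (SE 0.15, edgeR adjusted p 0.00424). Gm15500, a transcribed processed pseudogene, rose by 1.23 (SE 0.16, edgeR adjusted p 0.00569) on the log2 scale; it and Rps23 have similar copies elsewhere in the genome and their counts are uncertain. Hmgn5, a nucleosome-binding protein, and Hnrnpa2b1, an RNA-binding protein of splicing, rose by 0.69 (SE 0.11, edgeR adjusted p 0.0262) and 0.64 (SE 0.10, edgeR adjusted p 0.0213). Hnrnpa2b1 had 218 to 222 CPM in vehicle and 293, 369 and 364 CPM at 3 µg/kg. Both calls were lost in 5 of the 6 fits that left out 1 library, the exception being treated replicate 1, with adjusted p up to 0.150 and 0.145. Of the 80 cytosolic ribosomal protein genes tested, a group chosen after its values were seen, 1 was called higher and 17 had an unadjusted p under 0.05 in that direction, against 0.0569% and 6.48% of all genes. Another 6 had such a p in the lower direction (4.89% of all genes), and the median log2 change was 0.09.

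Of the digestive enzymes of the pancreas, 3 fell to between 0 and 2 counts. Pnlip, pancreatic lipase, had 1.13 to 1.30 CPM in vehicle and no count at 3 µg/kg, so vehicle was at least 6.29-fold higher (edgeR adjusted p 0.00918). Cela2a, an elastase, had 0.733 to 1.204 CPM in vehicle and no count at 3 µg/kg, so vehicle was at least 4.99-fold higher (edgeR adjusted p 0.0268). Ctrb1, chymotrypsinogen, had 139 counts in vehicle and 2 at 3 µg/kg, a rate of 0.0177 times that of vehicle (95% exact interval 0.00212 to 0.0652; edgeR adjusted p 0.00435). The calls of Pnlip and Ctrb1 held in each of the 6 fits that left out 1 library, and that of Cela2a was lost in 5, with an adjusted p of up to 0.116.

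Other enzymes of the list showed the same absence below the filter on low counts. Cel, Cpa1 and Prss2 had no count at 3 µg/kg and 0.578 to 0.926 CPM in the vehicle libraries. In all, 10 of the 21 pancreatic enzymes had no count at 3 µg/kg and 1 had none in vehicle, and of the 9 tested 3 were called lower (0.171% of all genes), with a median log2 change of -0.36. The list summed to 45.6 to 56.2 CPM in vehicle and 32.0 to 41.5 CPM at 3 µg/kg. Without Pnliprp2, Clps, Cela1 and Rnase1, left out after their values were seen because intestine also expresses them, the sums were 8.91 to 10.8 CPM in vehicle and 1.11 to 1.41 CPM at 3 µg/kg. Pancreatic tissue or RNA in the vehicle scrapings would add these transcripts, and its part in the result was not tested. Of 8 liver genes, Cps1, a urea cycle enzyme that intestine also expresses, had 334 to 399 CPM in vehicle and 318 to 519 CPM at 3 µg/kg and made up nearly all of the list's sum. Each of the other 7, among them Alb, Ttr and Apoa2, had at most 0.934 CPM in these libraries.

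Of the 36 called genes, 13 were small RNA genes, and all of these were lower. Of 192 tested, which comprise the annotated snoRNA, scaRNA, snRNA, misc_RNA, ribozyme, rRNA and miRNA genes, 13 were called lower and 0 higher. Over all genes, 0.171% were called lower and 0.0569% higher. An unadjusted p under 0.05 was found for 50 in the lower direction (4.89% of all genes) and 6 in the higher (6.48%). The median log2 change of the class was -0.31, against 0.00 for all genes. The class summed to 14046 to 17082 CPM in vehicle and 7979 to 10087 CPM at 3 µg/kg. Most of this sum came from rRNA genes (6349 to 9006 CPM in vehicle, 3351 to 4447 CPM at 3 µg/kg) and ribozyme genes. Nearly all of the rRNA part came from CT010467.1 alone, so the class sum does not describe the class as a whole. The ribozyme genes summed to 4202 to 4674 CPM in vehicle and 1576 to 2223 CPM at 3 µg/kg. Sums of snRNA, scaRNA and miRNA genes overlapped between groups, whereas those of snoRNA and misc_RNA genes did not. Of the 13 calls, 7 held in each of the 6 fits that left out 1 library.

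The abundant housekeeping RNAs led by level. Rpph1, the RNA of ribonuclease P, which trims tRNA precursors, had 4130, 3753 and 3875 CPM in vehicle and 2009, 1807 and 1391 CPM at 3 µg/kg, a change of -1.18 in log2 (SE 0.14, edgeR adjusted p 0.00435). Rmrp, the RNA of the related ribonuclease MRP, had 447 to 544 CPM in vehicle and 185 to 236 CPM at 3 µg/kg, a change of -1.20 in log2 (SE 0.12, edgeR adjusted p 0.00089). Rn7sk, which holds the transcription elongation factor P-TEFb inactive, fell from 96.2 to 115 CPM to 38.7 to 50.7 CPM, a change of -1.28 in log2 (SE 0.15, edgeR adjusted p 0.00392). Vaultrc5, a vault RNA, had 75.8, 39.8 and 37.7 CPM in vehicle and 16.4, 8.35 and 8.40 CPM at 3 µg/kg, and Rn7s6 had 13.5 to 17.9 CPM in vehicle and 4.70 to 6.31 CPM at 3 µg/kg. Each of these 5 was called without any 1 of the 6 libraries. Mir6236 fell from 280 to 291 CPM to 161 to 163 CPM (log2 change -0.81, SE 0.14, edgeR adjusted p 0.0272). The rRNA gene CT010467.1 had 6333 to 8989 CPM in vehicle and 3338 to 4433 CPM at 3 µg/kg (edgeR adjusted p 0.0436). The calls of Mir6236 and CT010467.1 were lost in 5 of the 6 fits that left out 1 library, with adjusted p up to 0.142 and 0.208.

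Among the 13 small RNA genes the largest falls by log2 change were those of 2 guide RNAs of RNA modification. Gm25776, a snoRNA, had 19.9, 9.49 and 9.56 CPM in vehicle and 0.981, 1.34 and 0.939 CPM at 3 µg/kg, a change of -3.56 in log2 (SE 0.35, edgeR adjusted p 0.00089). Gm25394, also a snoRNA, had 1.30 to 2.43 CPM in vehicle and 0.0584 to 0.235 CPM at 3 µg/kg, a change of -3.51 in log2 (SE 0.45, edgeR adjusted p 0.00531). Its treated levels lay around the floor of 3 counts (0.175 to 0.226 CPM), so the size of this fall is uncertain. The scaRNAs Gm22767 and Gm22442, of the class that modifies spliceosomal RNA in Cajal bodies, fell by 1.49 (SE 0.24) and 1.10 (SE 0.17) on the log2 scale (edgeR adjusted p 0.0213 for both), with calls that were lost in 4 and 3 of the 6 fits that left out 1 library. Among spliceosomal RNAs, Rnu12, the U12 RNA of the minor spliceosome, had 18.9, 9.26 and 18.8 CPM in vehicle and 4.75, 3.56 and 4.81 CPM at 3 µg/kg. Gm24407 had 2.64 to 3.55 CPM in vehicle and 0.701 to 0.822 CPM at 3 µg/kg. Of the 6 fits that left out 1 library, Rnu12 was called in 2 and Gm24407 in 5, with edgeR adjusted p up to 0.148 and 0.0747.

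Guide RNAs with box H/ACA, which direct pseudouridylation, end in ACA followed by 3 bases, whereas box C/D RNAs, which direct methylation of ribose, carry TGATGA near the start and CTGA near the end. This division was made after the values were seen, with ACA 3 bases from the end for the H/ACA class, and TGATGA in the leading 20 and CTGA in the last 15 bases for the C/D class. Of the 38 tested snoRNA and scaRNA genes in the H/ACA class, 4 were called lower (0.171% of all genes), and the median log2 change was -0.76. In this class 17 had an unadjusted p under 0.05 in the lower direction (4.89% of all genes) and 0 in the higher (6.48%). Of the 15 in the C/D class, 0 were called by edgeR, 4 had such a p in the lower direction, and the median was -0.25. The other 17 had a median of -0.15. They include RNAs whose names give a class that the letters missed. Snora28 and Snora17, named as H/ACA, changed by 0.75 and 0.14 in log2. Snord22, Snord118, Snord16a and Snord71, named as C/D, changed by -0.996, -0.58, -0.43 and 0.16. Snora28 was higher at an unadjusted edgeR p of 0.0395, so the 0 in the higher direction depends on the rule of letters. The difference between the classes was not tested. The 4 called guide RNAs are all of the H/ACA class, and their GENCODE M21 transcripts are shown to make this visible, with the ACA in capitals; Rnu12 is shown beside them with ATTTTTG in capitals, letters of the kind bound by Sm proteins. The RefSeq mature sequence of Mir6236 is given to identify the gene, with its seed in capitals. The counts are of the gene, and the mature RNA was not measured.
Gm25776, 143 nt, chr12:91573430-91573572, minus strand: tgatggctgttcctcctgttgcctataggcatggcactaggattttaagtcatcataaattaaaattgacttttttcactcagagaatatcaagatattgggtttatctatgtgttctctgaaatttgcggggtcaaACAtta
Gm25394, 133 nt, chr13:49684301-49684433, plus strand: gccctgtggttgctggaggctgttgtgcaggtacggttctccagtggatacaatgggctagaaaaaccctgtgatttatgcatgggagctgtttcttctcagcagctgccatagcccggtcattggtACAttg
Gm22767, 165 nt, chr4:132838383-132838547, minus strand: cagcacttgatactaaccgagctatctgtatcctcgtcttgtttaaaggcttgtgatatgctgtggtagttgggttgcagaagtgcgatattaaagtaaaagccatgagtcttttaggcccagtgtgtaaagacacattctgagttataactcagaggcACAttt
Gm22442, 144 nt, chr11:69350518-69350661, minus strand: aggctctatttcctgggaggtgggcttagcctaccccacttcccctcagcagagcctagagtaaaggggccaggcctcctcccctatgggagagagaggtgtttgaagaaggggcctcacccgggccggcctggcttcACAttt
Rnu12, 151 nt, chr15:83149644-83149794, plus strand: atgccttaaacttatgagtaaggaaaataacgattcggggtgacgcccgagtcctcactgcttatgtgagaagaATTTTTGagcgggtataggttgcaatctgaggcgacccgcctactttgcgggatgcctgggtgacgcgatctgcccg
mmu-miR-6236, mature, chr9:110281353-110281371, plus strand, seed (bases 2 to 8) in capitals: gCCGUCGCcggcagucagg

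Several of these RNAs lie inside longer genes, which served as a comparison. Gm25776 lies in Gtf2a1, Gm25394 in Iars, Gm22767 in Ppp1r8 and Gm22442 in Chd3, on the same strand. The log2 changes of these hosts were 0.14 (SE 0.10), 0.13 (SE 0.20), 0.08 (SE 0.14) and -0.17 (SE 0.20), and their groups overlapped. Rpph1 overlaps Ccnb1ip1, which had 1 count in the 6 libraries together. Reads over both a small RNA and its host can be set aside as ambiguous in counting, so these levels are uncertain; ambiguous reads made up 0.527% to 0.728% of the total in vehicle and 0.430% to 0.475% at 3 µg/kg. Rmrp has an antisense neighbour, Ccdc107, and the strand setting of the counting is not given in the sources used here.

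The 13 genes were followed at the higher doses. Rpph1 had 1855 to 1976 CPM at 10 µg/kg and 9492 to 11742 CPM at 30 µg/kg. Between 3 and 30 µg/kg, 11 of the 13 were called, all higher at 30 µg/kg (4.87% of all genes were called between these doses), and between 3 and 10 µg/kg 0 were called by edgeR (0.158% of all genes). Rn7sk had 38.7 to 50.7 CPM at 3 µg/kg, 64.1 to 74.6 CPM at 10 µg/kg and 57.2 to 87.9 CPM at 30 µg/kg, below the vehicle libraries at each dose. Mir6236 had 127 to 201 CPM at 10 µg/kg and 145 to 177 CPM at 30 µg/kg, also below vehicle. The doses share the vehicle libraries, so their changes against vehicle are not independent.

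**Figure D4:**
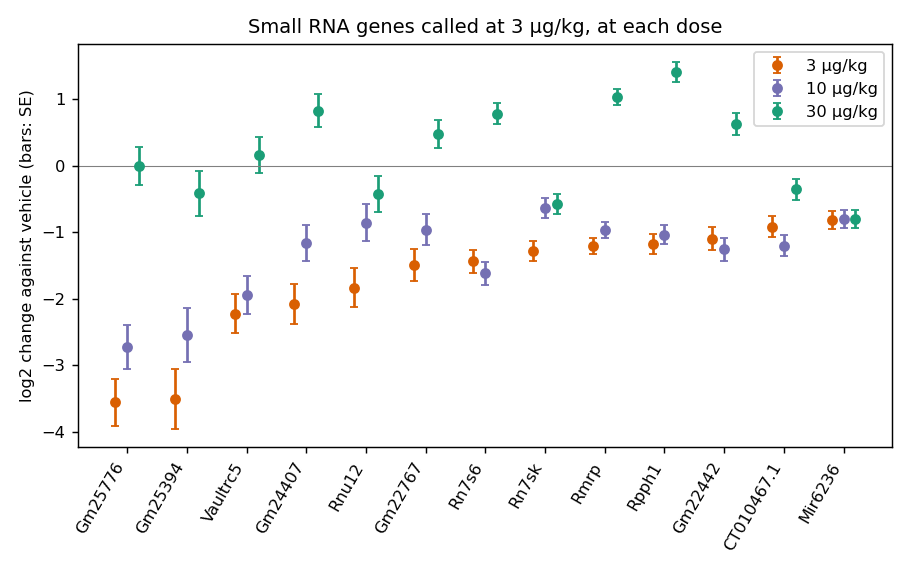
Log2 change against vehicle (vertical axis, bars are standard errors) at 3, 10 and 30 µg/kg for the 13 small RNA genes called at 3 µg/kg. All points of 3 and 10 µg/kg lie below 0, whereas at 30 µg/kg Rpph1 and Rmrp lie at 1.41 and 1.03; the 3 doses share the same vehicle libraries.

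The other genes that fell belonged to no single class. Hist2h4, a histone H4 gene, had 14.7 to 17.7 CPM in vehicle and 6.04 to 8.29 CPM at 3 µg/kg, a change of -1.12 in log2 (SE 0.14, edgeR adjusted p 0.00435), while the 52 histone genes tested had a median of 0.02. Gm42826, a gene of the annotation class TEC on chromosome 3, had 14.3 to 19.97 CPM in vehicle and 2.57 to 3.70 CPM at 3 µg/kg, a change of -2.40 in log2 (SE 0.17, edgeR adjusted p 4.27e-05), and was called in each of the 16 fits. Romo1, a mitochondrial membrane protein, fell by 1.54 (SE 0.28, edgeR adjusted p 0.0473) and has an antisense neighbour, Nfs1. Dynll1, a dynein light chain, and Snrpc, a protein of the U1 particle, fell by 0.74 (SE 0.13, edgeR adjusted p 0.0345) and 0.60 (SE 0.10, edgeR adjusted p 0.032). The immunoglobulin segment Ighv1-19 fell by 2.78 (SE 0.38, edgeR adjusted p 0.00735), the unprocessed pseudogene Gm13340 by 0.96 (SE 0.16, edgeR adjusted p 0.0266), and both resemble other loci and are uncertain. The non-coding Gm37696, B230206H07Rik and AA474408 fell by 2.81, 1.72 and 1.15 on the log2 scale, and each lies opposite a coding gene (Rap2b, Eps8l2 and Zfp143), whose reads cannot be told apart from theirs without strand. Of the genes in this paragraph, Hist2h4 and Gm42826 were called in each fit that left out 1 library; Ighv1-19 was lost without treated replicate 3 (edgeR adjusted p 0.0542), Romo1 in 4 fits (up to 0.258) and the other 6 in 5 fits each (up to 0.26).

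Marker and pathway lists were described by their counts. Of 45 lists, 3 held a called gene, namely the AhR targets, the ileal enterocyte genes and the pancreatic enzymes. Among the other 42, the Paneth cell list had 6 of 11 tested genes with an unadjusted p under 0.05 in the higher direction (6.48% of all genes) and a median log2 change of 0.59, which was 0.93 without treated replicate 1. Ang4, a Paneth cell ribonuclease, had 34.6, 46.3 and 28.3 CPM in vehicle and 38.3, 81.1 and 90.8 CPM at 3 µg/kg, and Lyz1, lysozyme, had 354, 470 and 309 CPM in vehicle and 313, 679 and 774 CPM at 3 µg/kg. In both genes treated replicates 2 and 3 were above vehicle and replicate 1 was not. Smooth muscle genes had a median of -0.91, with 2 of 17 at an unadjusted p under 0.05 in the lower direction (4.89% of all genes), and the genes of B and plasma cells, 3 of 10 at such a p, had a median of -0.85. The smooth muscle list summed to 990, 628 and 685 CPM in vehicle and 606, 715 and 769 CPM at 3 µg/kg, so its vehicle replicate 1 stood highest and the groups overlapped. Without that library the median was -0.29 for smooth muscle and -1.33 for B and plasma cells, and without treated replicate 1 it was -0.57 and -0.89.

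Lists of secretory, lipid metabolism and immune genes also had members at higher values, without a call. Among 12 endoplasmic reticulum chaperone genes, 4 had an unadjusted p under 0.05 in the higher direction (6.48% of all genes) and 0 in the lower (4.89%). Hsp90b1 (GRP94) had 277 to 324 CPM in vehicle and 361 to 489 CPM at 3 µg/kg, a change of 0.48 in log2 (SE 0.12, edgeR adjusted p 0.163), and Hspa5 (BiP) had 220 to 248 CPM and 289 to 350 CPM, a change of 0.39 in log2 (SE 0.11, edgeR adjusted p 0.251). Of 19 cholesterol synthesis genes, 4 had such a p in the higher direction, led by Pmvk, phosphomevalonate kinase, with 8.05 to 10.1 CPM in vehicle and 13.0 to 15.4 CPM at 3 µg/kg (log2 change 0.66, SE 0.16, edgeR adjusted p 0.186). Of 8 MHC class II genes 3 had such a p in the higher direction. The acute-phase gene Saa1 had 0.420 to 1.76 CPM in vehicle and 2.98 to 3.85 CPM at 3 µg/kg (log2 change 1.45, SE 0.39, edgeR adjusted p 0.221).

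Downward values without a call included an intestinal alkaline phosphatase and a goblet cell protein. Akp3 had 23.9, 25.6 and 19.3 CPM in vehicle and 0.604, 0.584 and 8.75 CPM at 3 µg/kg. Its log2 change was -2.76 (SE 0.76, edgeR adjusted p 0.229), and without treated replicate 3 it was -5.26 and was called (edgeR adjusted p 0.0100). Alpi, the other member of the family, had 855 to 971 CPM in vehicle and 638 to 956 CPM at 3 µg/kg. Zg16, a lectin of goblet cell granules, had 912 to 1270 CPM in vehicle and 648 to 877 CPM at 3 µg/kg, a change of -0.59 in log2 (SE 0.15, edgeR adjusted p 0.186). The propionyl-CoA carboxylase subunit Pcca had 7.33 to 9.07 CPM in vehicle and 9.43 to 12.4 CPM at 3 µg/kg, a change of 0.45 in log2 (SE 0.14, edgeR adjusted p 0.269), and of the 4 carboxylation genes it alone had an unadjusted p under 0.05.

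Genes of cobalamin absorption and xenobiotic metabolism also had members at lower values. Of the 5 cobalamin absorption genes, 2 had an unadjusted p under 0.05 in the lower direction (4.89% of all genes) and 0 were called by edgeR, with a median log2 change of -0.32 that was -0.52 without treated replicate 1. Amn, the membrane partner of cubilin, had 96.9, 116 and 112 CPM in vehicle and 107, 70.6 and 70.7 CPM at 3 µg/kg, a change of -0.39 in log2 (SE 0.16, edgeR adjusted p 0.385). Without treated replicate 1 Amn was called, at -0.62 (edgeR adjusted p 0.0394). Tcn2, the plasma carrier of cobalamin, had 359 to 391 CPM in vehicle and 385, 259 and 270 CPM at 3 µg/kg, a change of -0.32 in log2 (SE 0.13, edgeR adjusted p 0.39). The list summed to 1691, 2055 and 1763 CPM in vehicle and 2315, 883 and 829 CPM at 3 µg/kg, so treated replicate 1 was the highest library and the other 2 the lowest. Of 12 Cyp2 and Cyp3 monooxygenases 2 had such a p in the lower direction. Cyp2d26 had 184 to 217 CPM in vehicle and 185, 121 and 105 CPM at 3 µg/kg (-0.54 in log2, SE 0.17, edgeR adjusted p 0.287), and Cyp2e1 had 1.31 to 2.36 CPM in vehicle and 0.906 to 1.06 CPM at 3 µg/kg (-0.81 in log2, SE 0.32, edgeR adjusted p 0.368).

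The called genes were then set beside the clock state. Across the 12 libraries, after removal of group means, 0 of the 36 called genes had an absolute correlation above 0.8 with the Dbp to Arntl ratio, against 11.1% of all genes tested, and the median absolute correlation was 0.22 against 0.41. A call needs a small spread within groups, which a gene that follows the clock does not have here, so this contrast follows in part from the rule. With the ratio as a covariate, 57 genes (0.36%) were called, and these included each of the 36. Among the 21 added were Slc10a2, Slc25a48 (a mitochondrial carrier; 0.282 to 1.85 CPM in vehicle and 3.62 to 7.55 CPM at 3 µg/kg), Car2 (carbonic anhydrase 2; 28.5 to 31.3 and 48.4 to 58.7 CPM), Ubd (an interferon-inducible ubiquitin-like protein; 18.7 to 25.7 and 33.8 to 76.6 CPM), Ildr1, Dgkh and Akp3. Their adjusted p with the covariate was between 0.000699 and 0.0498, and in the fit without it between 0.0661 and 0.229. Slc25a48, Car2, Ubd, Ildr1 and Dgkh were chosen for mention after their values were seen.

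Treated replicate 1, the Dbp-high library of its group, decided how many genes were called. Without it 164 genes were called, 107 higher and 57 lower, and these included the 36; without any other single library of the 6 the count was between 19 and 24. The mean log2 ratio of Dbp to Arntl was then 0.68 in vehicle and -4.17 in the 2 remaining treated libraries, so dose and clock state were more nearly aligned than with all libraries (0.68 and -1.43). Vehicle still held libraries of both clock states. A call needs a small spread within groups, so genes that follow the clock could hardly be added, and the next contrast follows in part from the rule. Of the 128 genes added, 9 had an absolute within-group correlation above 0.8 with the ratio, against 11.1% of all genes tested. Their median absolute correlation was 0.51, against 0.41 for all genes tested. Crypt genes were among them: 6 of 11 Paneth, 3 of 16 proliferation, 2 of 9 stem cell and 6 of 52 histone genes were then called higher, against 0.676% of all genes. In the lower direction 1 histone gene and 0 of the Paneth, proliferation and stem cell genes were called in this edgeR fit, against 0.36% of all genes. Mki67, a marker of cycling cells, had 114, 117 and 137 CPM in vehicle and 101, 200 and 224 CPM at 3 µg/kg, and Top2a, a topoisomerase of dividing cells, had 65.3 to 75.7 CPM in vehicle and 52.6, 118 and 130 CPM at 3 µg/kg. Replicate 1 was below the vehicle libraries in both genes, and it also had the highest enterocyte sum of the 6 libraries (72361 CPM, against 47985 and 50413 in treated replicates 2 and 3). Clock state and the levels of crypt and enterocyte genes differed together in this library, and their parts in these added calls cannot be told apart.

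**Figure D5:**
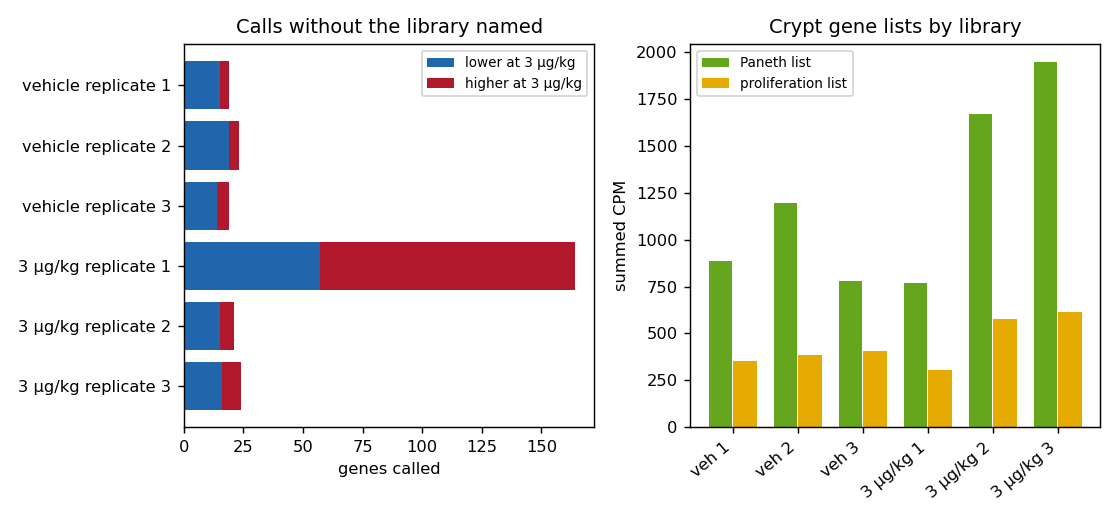
Left, genes called lower (blue) and higher (red) at 3 µg/kg when the library named on the vertical axis was left out. Right, summed CPM of the Paneth and proliferation lists in each vehicle and 3 µg/kg library. Only the fit without 3 µg/kg replicate 1 exceeds 24 genes (164), and that library has the lowest sums of both lists.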

How the data were processed

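The deposited files hold raw counts of reads per gene for each library, which the authors made from total RNA (NuGen Ovation Mouse RNA-Seq) of ileal epithelial scrapings. The submitters' processing notes name FastQC 0.11.3, Trimmomatic 0.33, TopHat2 2.1.0, SAMtools 1.2.0, HTSeq 0.6.1, DESeq and GRCm38; the annotation release and the strand setting of counting are not given in the sources used here. Reads with no gene, more than 1 location or more than 1 gene stayed out of library sizes and tests. Of 46078 genes, 15823 passed edgeR's filterByExpr over the 4 groups and held 99.9% of the gene counts.

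Counts were scaled by TMM and fitted by edgeR 4.0.16 (limma 3.58.1, R 4.3.3) with the quasi-likelihood test over 12 libraries in 4 groups, and p-values were adjusted over all genes tested. A call needed an adjusted p under 0.05 and a change of 1.5-fold. CPM divide counts by the TMM-scaled library size. The treated libraries were shallower than vehicle, which raises the floor of 3 counts; intervals and floors cover counting error only. Replicates were numbered in accession order. The script was tested on simulated data. Alternatives were other scalings and filters, DESeq2 1.42.0, limma-voom, the 6 libraries alone, the Dbp to Arntl ratio or the library index as a covariate, and leaving out each library.

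The members and gene lists were chosen with earlier results of these data known. The rule for naming admitted the tested AhR, receptor complex and clock genes, every called gene, and of each other list the called members and up to 4 with the lowest p; not every gene it admits is described, and some are not reported here. Host genes, the ribosomal, histone and immunoglobulin groups, and other genes outside this rule were chosen after their values were seen.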

Additional observations from a re-analysis of the deposited data

Results flagged for a closer look

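Several genes called at 3 µg/kg also differed between 3 µg/kg and a higher dose in edgeR's quasi-likelihood test of that difference (adjusted p under 0.05 and at least 1.5-fold). All values are log2 differences, higher dose minus 3 µg/kg, and those of genes with no count in a group depend on the prior count of the fit. Groups of 3 libraries were not tested for outlying libraries.

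Against 10 µg/kg, 6 genes differed. Fabp6 and Fgf15 were lower at 10 µg/kg, by -7.21 and -7.90. Slc6a14, 1810065E05Rik, Gm15500 and Gm42826 were higher at 10 µg/kg, by 2.16, 2.12, 1.00 and 1.66.

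Against 30 µg/kg, 24 genes differed. Fabp6, Fgf15, Slc6a14 and 1810065E05Rik were lower at 30 µg/kg, by -8.44, -7.90, -4.87 and -1.04. Among the small RNA genes, Gm25776, Gm25394, Gm24407, Rpph1, Vaultrc5 and Rmrp were higher at 30 µg/kg, by 3.55, 3.09, 2.91, 2.59, 2.38 and 2.24. Rn7s6, Gm22767, Gm22442, Rnu12 and Rn7sk were higher by 2.22, 1.97, 1.73, 1.42 and 0.70. Cyp1a2 and Ctrb1 were higher by 7.78 and 3.44. Gm42826, Romo1, Hist2h4, Gm37696, Dynll1, Snrpc and Gm13340 were higher by 2.70, 2.19, 1.98, 1.94, 1.30, 0.83 and 0.74.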

How the results depend on the processing

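The 36 called genes kept their direction in every alternative that tested them, and the median change of all genes moved by at most 0.03. Without a filter on low counts 71 genes were called (25 higher, 46 lower), and with at least 10 counts in every library 23 (17 lower). DESeq2 called 79 (30 higher, 49 lower, 21 small RNA genes). The 6 libraries alone gave 6 (1 higher, 5 lower, 4 small RNA genes). The Dbp to Arntl covariate gave 57 (22 higher), and the library index covariate 18 (5 higher, 13 lower, 8 small RNA genes). Leaving out 1 library gave 19 to 164 calls, 4 to 107 higher, 14 to 57 lower and 8 to 15 small RNA genes; 164, 107 and 57 came without treated replicate 1. The causes were not tested, beyond the smaller number of libraries or genes in some fits. Of genes not called, 3 turned sign. Nqo1 ran from -0.067 to 0.13 and Iars from -0.12 to 0.38 with 1 library left out. Arntl ran from -0.19 to 2.20, and was -0.25 with the library index covariate. No paired analysis was possible because the labels give no replicate numbers. Depth limits genes near 3 counts per library, such as Fgf15, Cela2a and Cyp1a2.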
